A study of Mus musculus with 12 samples.

Results

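The tibialis anterior (TA), a fast muscle of the lower leg, was compared between 4-week-old mice with a knockout (KO) of H6pd and wild type (WT) mice of the same age. The 6 arrays of this muscle, 3 KO and 3 WT, were taken by their labels from the 12 arrays of the series, whose other 6 hold the soleus of the same genotypes and age. The labels name no strain, sex, deleted part of the gene or treatment, and give only genotype, muscle, age and a replicate number from 1 to 3, called biological. They do not say that the replicates came from separate mice, so the p-values measure the spread between these arrays. Fast fibre markers were among the brightest signals on every TA array, with means over the 8 markers between 15.43 and 15.75 (log2 signal).

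The product of H6pd, hexose-6-phosphate dehydrogenase, sits in the lumen of the endoplasmic reticulum (ER). It oxidises glucose 6-phosphate, which the transporter Slc37a4 brings into the lumen, and makes NADPH there. In tissues with the reductase Hsd11b1 this NADPH is used to regenerate active glucocorticoid. In muscle the ER includes the sarcoplasmic reticulum, the calcium store of contraction. When unfolded proteins collect in the ER, the sensors Ern1, Atf6 and Eif2ak3 start the unfolded protein response (UPR), which raises chaperones and folding enzymes, slows translation and induces the transcription factors Xbp1, Atf4 and Ddit3.

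H6pd signal itself gave no check of the labels. It read 6.89, 6.49 and 7.49 (log2) on the KO arrays and 6.37, 6.26 and 7.92 on the WT arrays. The groups overlapped, and the difference was 0.11 (SE 0.62, limma adjusted p = 0.966). Its sign was negative when KO array 3 (-0.16), WT array 1 (-0.13) or WT array 2 (-0.19) was left out. H6pd was read by 1 probe set, and the labels do not say whether this lies in the deleted part. Genotypes were therefore taken from the labels alone.

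KO TA differed from WT TA in both directions. Of 13009 genes tested, 368 (2.83%) passed the limma test at an adjusted p under 0.05 (Benjamini-Hochberg, 2-sided, n = 3 arrays per group), 185 higher in KO (1.42%) and 183 lower (1.41%). Among them 160 differed by over 2-fold, 83 higher and 77 lower. The losses were the deeper changes: 14 genes were lower by over 4-fold and 9 by over 8-fold, while 10 were higher by over 4-fold and 0 by over 8-fold. The KO and WT values of all 368 did not overlap; over all genes tested, 10.7% were higher and 12.5% lower in KO without overlap. The median difference of all genes was -0.005 (log2), and 48.6% had a higher KO mean. Each count of list members below is to be read beside these shares of all genes.

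**Figure D1:**
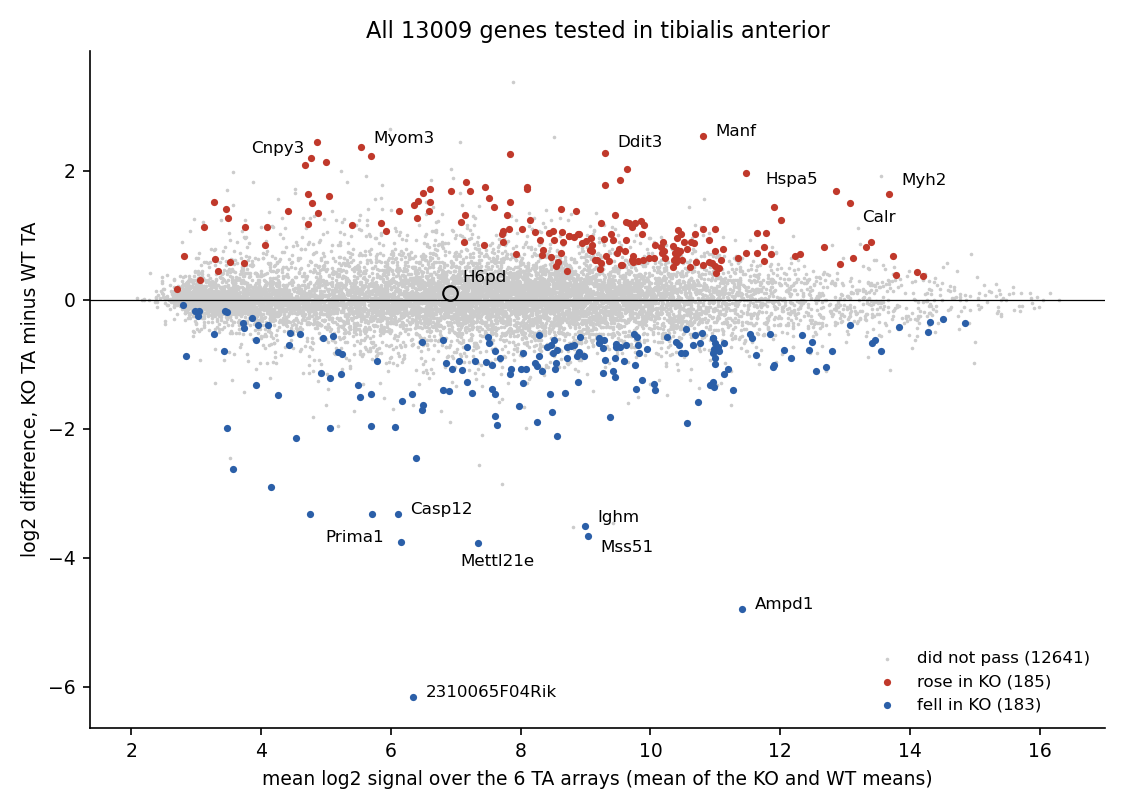
Log2 difference between KO and WT TA (y axis) against the mean log2 signal over both groups (x axis) for each of the 13009 genes, with the 185 that rose in red and the 183 that fell in blue; H6pd is ringed. The largest difference is the loss of 2310065F04Rik, at -6.16, and H6pd lies near 0, at 0.11.

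The number of genes past the test rested on the arrays and on the design. On the first principal component of the TA arrays (39.5% of the variance) KO arrays lay between -39.1 and -2.86 and WT arrays between 4.90 and 27.9; on the next (33.5%) the arrays numbered 3 stood apart in both groups, at -10.4 and -42.7 against 4.46 to 23.1. Without 1 array the count was 398 (KO TA replicate 1), 85 (KO 2), 117 (KO 3), 178 (WT 1), 204 (WT 2) or 242 (WT 3), and 56 without both arrays numbered 3. In these leave-outs of 1 array 0 of the 368 genes changed sign or moved by over 1.5 times, and 66 kept their call in all 6, 32 higher and 34 lower. Below, "kept in all 6" marks these genes. With the TA arrays alone, without the soleus arrays in the estimate of the spread, 4 genes passed, 2310065F04Rik, Cnpy3, Gadd45g and Synm, the last of which missed the main test (-1.10, adjusted p = 0.0532). When replicate number entered as a block, 469 genes were higher (3.61%) and 444 lower (3.41%), among them 367 of the 368. The labels do not say that equal numbers pair the arrays, so passes with the block are given as an alternative only. Scaling moved the split between directions: 50.3% of the calls were higher in the main setting, 59.6% in the table as deposited, 71.5% after median centring on all probe sets and 35.8% after median centring on the kept probe sets, an alternative chosen after seeing the data, which shifted the median of all genes to -0.10.

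Genes of the secretory pathway made up the clearest group of higher transcripts. The 198 tested members of 6 lists that follow a protein through the ER, namely import, BiP-type chaperones, disulfide bonds, N-glycosylation, traffic to the Golgi and degradation, had a median difference of 0.44, against -0.01 for the 12811 other genes. In these lists 42 genes rose (21.2%) and 0 fell, against 1.12% that rose and 1.43% that fell among the others. Of the 198, 155 had a higher KO mean (48.6% of all genes). Without overlap, 104 were higher and 6 lower (10.7% and 12.5% of all genes). With the block 68 rose and 3 fell. Without single arrays the number that rose was 38 (KO TA replicate 1), 10 (KO 2), 15 (KO 3), 26 (WT 1), 23 (WT 2) or 21 (WT 3), and 5 without both arrays numbered 3. In whole muscle, more RNA per cell and more cells of a kind that carries such transcripts cannot be told apart.

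BiP and the proteins that serve it had the highest median of the 6 lists. Hspa5 encodes BiP, the ER's main Hsp70 chaperone, and read 13.42, 14.03 and 13.65 in KO against 12.10, 12.13 and 11.79 in WT. Every KO array lay above every WT array, and Hspa5 rose 3.24-fold (1.69, SE 0.33, adjusted p = 0.0271). Manf, a small protein of the ER lumen, read 11.66, 12.66 and 11.93 in KO against 9.98, 9.60 and 9.06 in WT. It had the largest difference of any gene that rose (2.54, SE 0.41, adjusted p = 0.014). Hsp90b1, the ER form of Hsp90, rose by 1.24 (SE 0.26, adjusted p = 0.0366), from 11.39 ± 0.16 to 12.62 ± 0.24 (mean ± SD, n = 3).

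Transcripts of some proteins that work with BiP rose too. Dnajb9, a J protein that directs BiP to its clients, rose from 10.49 ± 0.27 to 12.45 ± 0.43 (1.96, SE 0.40), and Sdf2l1, which works with BiP and J proteins, from 3.67 ± 0.18 to 5.87 ± 0.66 (2.20, SE 0.37). Creld2, an ER protein induced by stress, rose by 1.72 (SE 0.35). Cnpy3, which helps Toll-like receptors to fold, read 6.06, 6.12 and 6.03 in KO against 3.89, 3.91 and 4.00 in WT (2.14, SE 0.29, adjusted p = 0.00925, kept in all 6). Tlr4, a Toll-like receptor and a member of the inflammatory list, rose by 2.09 (SE 0.41), but its other probe sets differed by 0.00 and 0.22 and did not pass.

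Of the 18 tested genes of BiP and its co-chaperones, 7 rose (38.9%, against 1.42% of all genes) and 0 fell. Of the 18, 13 were higher without overlap (10.7% of all genes), with a median of 0.75. Hyou1, the exchange factor of BiP (1.08, adjusted p = 0.154), Sil1 (0.69, adjusted p = 0.0886) and Dnajc3 (0.40, adjusted p = 0.332) did not pass. Dnajc1 (-0.20), Dnajc10 (-0.09) and Cnpy4 (-0.08) had lower KO means, so the members did not all lean one way. The call of Hspa5 held without KO TA replicate 1 and was lost in the other 5 leave-outs (differences 1.53 to 1.83, adjusted p up to 0.103). That of Manf was lost without KO TA replicate 2 (adjusted p = 0.058). Hsp90b1 and Creld2 lost their calls in all 6 leave-outs (adjusted p up to 0.122 and 0.112). Dnajb9 lost its call in 5 (up to 0.112), and Sdf2l1 without KO TA replicate 2 or 3. Another bright probe set of Hspa5 differed by 1.95 and a dimmer one by -0.25.

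The promoters of these genes are shown because the UPR acts through a known element, ERSE, to which ATF6 binds together with NF-Y. Its letters, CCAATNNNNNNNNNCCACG, were searched on both strands of the window from 250 bases before to 50 bases after the start site of each gene (RefSeq sequences, mouse build GRCm38.p6), which 10449 of the tested genes had. Each sequence below runs 5′ to 3′ on the strand of its gene, with the match in capitals and up to 30 bases on either side; CGTGG first means that the element lies on the opposite strand.
Pdia6, chr12:17266461-17266539, + strand: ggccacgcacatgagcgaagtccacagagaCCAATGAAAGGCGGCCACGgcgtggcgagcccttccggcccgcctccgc
Creld2, chr15:88819490-88819568, + strand: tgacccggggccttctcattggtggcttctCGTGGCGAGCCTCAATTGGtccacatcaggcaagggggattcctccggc
Hspa5, chr2:34771995-34772073, + strand: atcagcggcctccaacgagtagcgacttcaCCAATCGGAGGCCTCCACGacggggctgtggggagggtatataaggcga
Calr, chr8:84847045-84847123, - strand: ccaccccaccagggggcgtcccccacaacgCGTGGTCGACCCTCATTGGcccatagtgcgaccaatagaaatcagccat
Hsp90b1, chr10:86705503-86705686, - strand: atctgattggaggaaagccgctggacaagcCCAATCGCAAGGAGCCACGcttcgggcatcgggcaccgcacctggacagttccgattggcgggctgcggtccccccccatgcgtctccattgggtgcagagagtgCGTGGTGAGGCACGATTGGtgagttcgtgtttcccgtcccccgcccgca
Derl3, chr10:75893212-75893290, + strand: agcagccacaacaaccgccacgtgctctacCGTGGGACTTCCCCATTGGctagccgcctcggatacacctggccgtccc
Canx, chr11:50325770-50325848, - strand: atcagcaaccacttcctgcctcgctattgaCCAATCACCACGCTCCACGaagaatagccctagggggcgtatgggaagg

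ERSE was rare, and the genes that carry it were mostly higher in KO TA. It matched the window of 15 tested genes, 0.144% of the 10449. Of the 145 genes that rose and had a window, 6 carried it (4.14%), of the 155 that fell, 0 did, and among genes of the 6 lists it matched 6 of 30 that rose and 5 of 135 that did not pass. Seen from the element, 6 of the 15 genes rose, 0 fell, 11 were higher without overlap and 0 lower, with a median difference of 0.92; with the block 9 rose. The 6 that rose were Pdia6, Creld2, Hspa5, Calr, Hsp90b1, which has a pair of matches, and Alg12 (0.44, SE 0.06, adjusted p = 0.011), which lies head to head with Creld2 and shares its match. Alg12 lay near background (3.11 ± 0.01 in WT, 3.55 ± 0.15 in KO). Pdia6 and Alg12 were kept in all 6 leave-outs. Creld2 and Hsp90b1 lost their calls in every leave-out, Hspa5 in 5 and Calr without KO TA replicate 2. Manf, Dnajb9, Sdf2l1 and Cnpy3, which also rose in the BiP list, were not among the 15. Derl3 had the largest difference of the 15 (1.98, SE 0.46, adjusted p = 0.0544, with the block 0.0387), from background in WT (2.57 ± 0.01) to 3.66, 6.00 and 3.99 in KO. Canx (0.92), Syvn1 (0.92), Ero1b (0.90) and Dnajc3 (0.40) did not pass and were higher without overlap; Canx and Ero1b passed with the block (adjusted p = 0.0182 and 0.0167). Of the others, Acacb (0.34), Adcy3 (0.04), Spats2l (-0.03) and Pan2 (-0.06) overlapped. Of the 15 genes 11 belong to the 6 lists, so the element and the lists are not separate evidence.

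**Figure D2:**
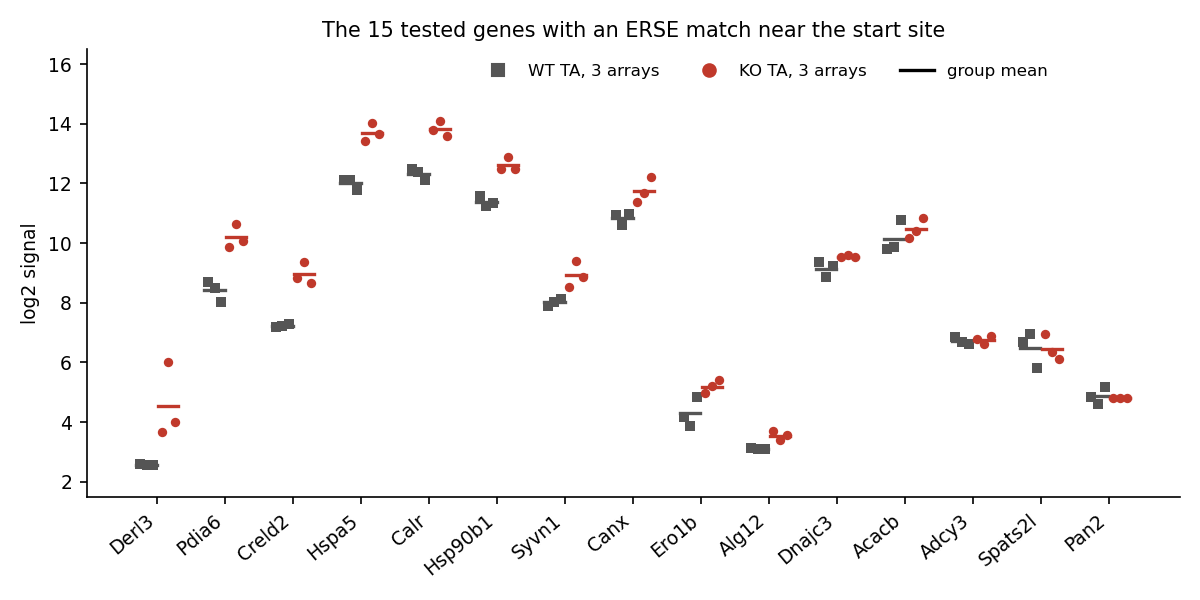
Log2 signal (y axis) on the 3 WT and 3 KO TA arrays, replicates 1 to 3 from left to right, for the 15 tested genes whose promoter window holds an ERSE match (x axis, ordered by difference). The 11 genes from Derl3 to Dnajc3 have every KO value above every WT value, and the last 4 overlap.

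Other elements of the stress response did not set the genes that rose apart from those that fell. ERSE-II (ATTGG and CCACG, 1 base apart, both strands) matched 8 windows, with 1 gene that rose, Krtcap2 (0.73), and 1 that fell, Lrif1 (-1.03, SE 0.23, adjusted p = 0.0454). Of those that did not pass, Herpud1 (1.15), Dnajb11 (0.81) and Nucb1 (0.75) were higher and Rcl1 (-0.58) lower without overlap. The core bound by XBP1 and ATF6 (TGACGTGG, both strands, which shares bases with ERSE-II where both match) was in 105 windows (1.0%), 4 of genes that rose (2.76%) and 4 of genes that fell (2.58%), and in 11 of 135 of the secretory lists that did not pass (8.15%). The composite element of ATF4 and Ddit3 (TGATGNAAN) was in 304 windows (2.91%), 3 of genes that rose (2.07%) and 4 of genes that fell (2.58%).

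Among enzymes of disulfide bond formation, the redox chemistry of the ER lumen, a few had higher transcripts. Pdia6 read 9.87, 10.64 and 10.06 in KO against 8.69, 8.51 and 8.04 in WT, without overlap, and rose by 1.78 (SE 0.27, adjusted p = 0.011, kept in all 6). P4hb, the classical protein disulfide isomerase, rose by 1.03 (SE 0.15, adjusted p = 0.0102, kept in all 6) from 11.26 ± 0.11 to 12.29 ± 0.12. These were the 2 of 27 tested isomerases and oxidases that rose (7.41%, against 1.42% of all genes), and 0 fell. Of the 27, 10 were higher without overlap (10.7% of all genes), and the median was 0.33. The oxidases Ero1b (0.90, adjusted p = 0.116) and Ero1a (0.49, adjusted p = 0.235) and the isomerases Pdia3 (0.79, adjusted p = 0.141) and Pdia4 (0.33, adjusted p = 0.553) did not pass. With the block 5 rose, Ero1b and Txndc5 (0.69) among them.

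N-glycosylation genes rose in part. Of the 44 tested genes and lectin chaperones 12 rose (27.3%, against 1.42% of all genes) and 0 fell. Of the 44, 22 were higher and 3 lower without overlap (10.7% and 12.5% of all genes), and the median was 0.31. Calr, the lectin chaperone calreticulin and a calcium buffer, read 13.78, 14.08 and 13.60 in KO against 12.48, 12.39 and 12.12 in WT (1.49, SE 0.24, adjusted p = 0.0137), and its other probe sets rose by 1.77 and 1.94. Enzymes that make the sugar donors rose, with Gmppb for GDP-mannose (1.61, SE 0.25), Pgm3 (1.16, SE 0.25) and Gfpt1 (0.75, SE 0.14) for UDP-N-acetylglucosamine. Alg2, a mannosyltransferase of the lipid-linked sugar, rose by 1.31 (SE 0.26). Subunits of the oligosaccharyltransferase that transfers this sugar rose too, Magt1 by 1.15, Ddost by 1.10, Rpn2 by 0.99 (SE 0.14, adjusted p = 0.0102, kept in all 6), Krtcap2 by 0.73 and Dad1 by 0.58. Its subunits Rpn1 (0.12), Stt3b (0.19) and Tusc3 (-0.06) did not pass. Uggt1, which tests the fold of glycoproteins, differed by 1.27 and passed with the block (adjusted p = 0.0931, with the block 0.0285).

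Transcripts for import into the ER were higher at several points. The list of translocon and signal peptide processing had 9 of 24 genes that rose (37.5%, against 1.42% of all genes) and 0 that fell. Of the 24, 17 were higher without overlap (10.7% of all genes), with a median of 0.61. Transcripts of the signal peptidase complex, which cuts the signal peptide, rose for Spcs3 (1.19, SE 0.16, adjusted p = 0.00925), Sec11c (1.18, SE 0.20), Spcs2 (1.10, SE 0.16) and Sec11a (0.94, SE 0.16), while Spcs1 differed by -0.22 (adjusted p = 0.479). Spcs2 and Spcs3 were kept in all 6. Sec61b, a subunit of the translocon channel, rose by 0.90, Ssr2 and Tram1, which sit beside it, by 1.02 and 0.61, and Srp68 of the signal recognition particle by 0.50. H13, the signal peptide peptidase, rose by 1.05 (SE 0.22), but its other probe sets differed by 0.00 to 0.47. A dim other probe set of Sec11c differed by 0.13.

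Transcripts for transport between ER and Golgi were higher in part. Of 57 tested genes 11 rose (19.3%, against 1.42% of all genes) and 0 fell. Of the 57, 31 were higher and 1 lower without overlap (10.7% and 12.5% of all genes), with a median of 0.47. Tmed3, a cargo receptor, read 10.04, 10.48 and 10.87 in KO against 8.53, 8.34 and 8.95 in WT (1.86, SE 0.25, adjusted p = 0.00922, kept in all 6), although a probe set near background differed by 0.09. For the coat of vesicles that return to the ER, transcripts rose for Copg1 (1.21, with -0.14 on a dimmer probe set), Copb2 (1.01, SE 0.10, adjusted p = 0.00268, kept in all 6), Copa (0.88) and Cope (0.76). Among genes of forward traffic, Sec31a (0.99) and Sec13 (0.59) of the outward coat rose. So did those of the tether Uso1 (0.62), the fusion protein Sec22b (1.01) and the cargo receptor Lman1 (1.01). Kdelr2, a receptor that retrieves chaperones such as BiP, rose by 0.64 (adjusted p = 0.0402), and Kdelr1 (0.57, adjusted p = 0.339) and Kdelr3 (0.41, adjusted p = 0.559) did not pass. Sar1b (-0.44, adjusted p = 0.0944) was lower without overlap.

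Degradation and the sensors of the response showed fewer calls. Of 28 tested genes of ER-associated degradation 1 rose (3.57%, against 1.42% of all genes) and 0 fell, with a median of 0.15. Derl1, part of the channel that moves misfolded proteins out, was the 1 that rose (0.77, SE 0.16, adjusted p = 0.036). Its other probe sets differed by 1.02 to 1.25. Herpud1 (1.15, adjusted p = 0.139) and Syvn1 (0.92, adjusted p = 0.292) did not pass, and the ubiquitin conjugating enzyme Ube2j1 was lower at -0.67 (adjusted p = 0.0545). Of 30 sensors and effectors of the UPR 1 rose and 1 fell (3.33% each, against 1.42% and 1.41% of all genes), with a median of 0.15. Ddit3, the stress transcription factor CHOP, read 9.50, 10.73 and 11.05 in KO against 8.32, 8.18 and 7.98 in WT, without overlap (2.27, SE 0.42, adjusted p = 0.0235). Its call was lost in 5 of 6 leave-outs, and a dim probe set differed by 0.70.

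Casp12, a caspase of the ER membrane, went the other way. It read 4.92, 3.29 and 5.11 in KO against 7.80, 7.71 and 7.78 in WT and fell (-3.33, SE 0.43, adjusted p = 0.00841, kept in all 6), with -3.21 on its other probe set. With the block 6 UPR genes rose and 2 fell. The following members were picked after their values were seen: Xbp1 (0.95, adjusted p = 0.0729, with the block 0.0338), Atf4 (0.74, 0.0595 and 0.0162) and Atf6 (1.23, 0.116 and 0.0367). Xbp1, Atf4 and Atf6 did not overlap, whereas the sensors Ern1 (1.26, adjusted p = 0.455) and Eif2ak3 (0.52, adjusted p = 0.218) and the effectors Atf3 (0.19), Ppp1r15a (0.07), Trib3 (1.14) and Chac1 (-0.43) overlapped and did not pass.

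**Figure D3:**
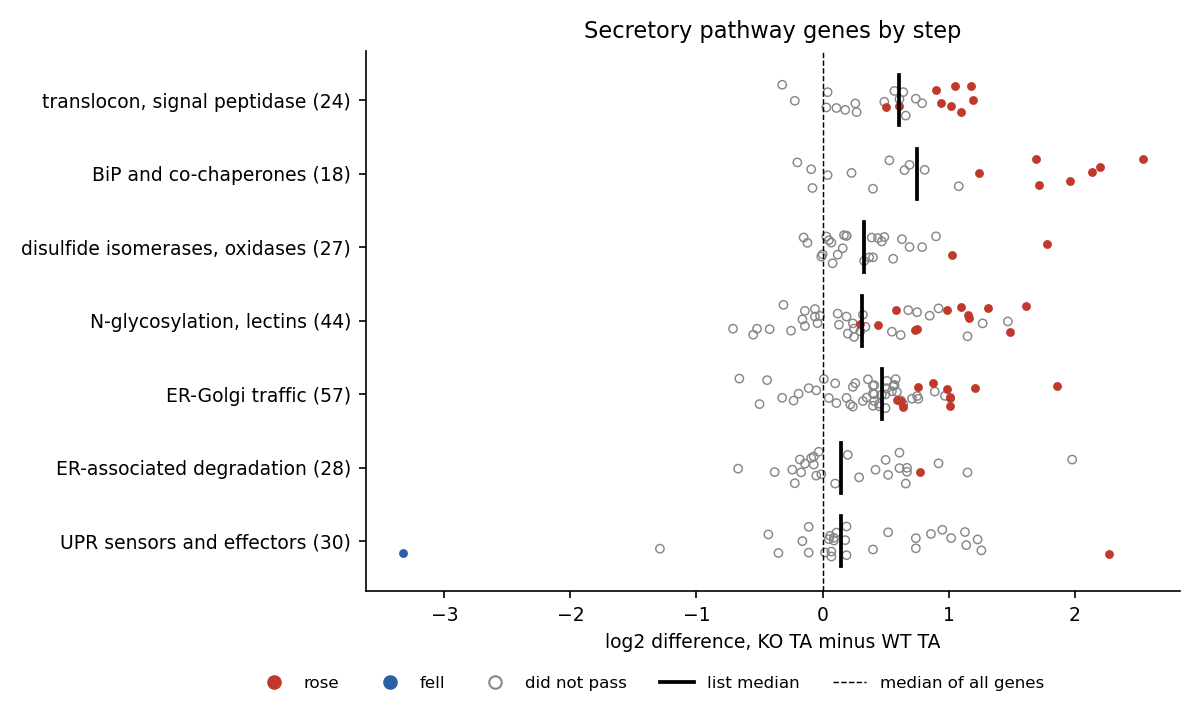
Log2 difference between KO and WT TA (x axis) for each tested gene of 7 lists (y axis, number tested in brackets): filled red points rose, filled blue points fell, open points did not pass, the bar is the list's median and the dashed line the median of all genes. Medians run from 0.75 for BiP and its co-chaperones to 0.15 for degradation and for the UPR, where Casp12 at -3.33 is the 1 gene that fell.

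Transcripts of enzymes of amino acid and one-carbon synthesis that ATF4 controls were higher in part. Of 26 tested, 3 rose (11.5%, against 1.42% of all genes) and 0 fell. Of the 26, 11 were higher without overlap (10.7% of all genes), with a median of 0.27. Aldh18a1, which starts proline synthesis with NADPH, rose from 6.70 ± 0.25 to 8.96 ± 0.63 (2.26, SE 0.34, adjusted p = 0.011), though its other probe sets differed by 0.07 to 1.11. Aldh1l2, the mitochondrial folate enzyme that makes NADPH, rose by 1.49 (SE 0.29, adjusted p = 0.026), and the aminotransferase Got1 by 0.64 (SE 0.14, adjusted p = 0.0454). Mthfd2, a mitochondrial folate enzyme, had a larger difference than any gene that rose, with 8.38, 10.06 and 10.25 in KO against 5.42, 6.94 and 6.21 in WT. It did not overlap and narrowly missed the test (3.38, SE 0.81, adjusted p = 0.0595), which it passed with the block (0.0234). Asns (2.44, adjusted p = 0.134) and Psat1 (1.83, adjusted p = 0.0553) likewise were higher without overlap and did not pass, and Gpt2 (-1.64, adjusted p = 0.102) was lower without overlap. Among aminoacyl-tRNA synthetases 1 of 23 cytosolic ones rose, Tars (0.53), and 0 of 16 mitochondrial ones, with Wars2 (0.77, adjusted p = 0.0553) and Sars2 (0.69, adjusted p = 0.209) the largest differences.

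Of 24 tested NADPH-making enzymes and ER sugar phosphate genes, the system in which H6pd works, 0 passed, with a median of -0.07. Of the 24, 6 were higher and 4 lower without overlap (10.7% and 12.5% of all genes). With the block 2 rose, Mthfd2 and Nnt, the mitochondrial transhydrogenase (0.53), and 1 fell, Slc37a4. Slc37a4, the transporter that brings glucose 6-phosphate into the ER, read 10.99, 10.24 and 10.11 in KO against 11.93, 11.85 and 11.41 in WT, lower without overlap. The difference was -1.29 (SE 0.33, adjusted p = 0.0675, with the block 0.019). Hsd11b1, the reductase that uses H6pd's NADPH, differed by -0.64 (adjusted p = 0.49), the pentose phosphate enzyme Pgd by 0.32 (adjusted p = 0.503) and Me1, malic enzyme, by -0.76 (adjusted p = 0.124).

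The deepest loss in KO TA was that of 2310065F04Rik, a long non-coding RNA called linc-Myh, known for keeping the fast myosin programme. It read 3.53, 3.10 and 3.15 in KO against 9.14, 9.42 and 9.70 in WT and fell 71.4-fold (-6.16, SE 0.18, adjusted p = 1.22e-07, kept in all 6). The KO values lie just above the background limit of 2.97 to 3.04 (the 95th percentile of 86 probe sets of chemosensory receptors), so the true fold may be larger; with a pseudocount of 32 added before log2 the difference was -4.10. In gene order on chromosome 11, 2310065F04Rik lies between Myh3 and Myh2 in the cluster of skeletal myosin heavy chains.

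Among the myosin heavy chains, Myh2, the myosin of fast oxidative fibres and the next tested gene after 2310065F04Rik, rose. It read 14.62, 14.59 and 14.29 in KO against 12.66, 12.34 and 13.56 in WT, without overlap (1.64, SE 0.25, adjusted p = 0.011, lost without KO TA replicate 2 at 0.0514). The other genes of the cluster did not pass. Myh1 differed by 0.10 (SE 0.11, adjusted p = 0.709), a sign that turned after median centring on the kept probe sets (-0.07) and with the mean of its probe sets (-0.13). Myh4, the main myosin of the fastest fibres, lay at 15.85 ± 0.14 and 15.91 ± 0.00 (-0.06), at the top of the scale, where differences are compressed, and its other probe set differed by -1.37 (adjusted p = 0.734). Myh3 (0.98), Myh8 (0.56) and the antisense transcript Myhas (-0.17) overlapped. Myh7, the slow myosin, read 8.04, 7.44 and 8.21 in KO against 7.11, 8.25 and 2.67 in WT (1.89, adjusted p = 0.43), so that its difference rests on the low value of WT TA replicate 3.

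Genes of slow fibres leaned higher, with 1 past the test. Of 22 tested slow fibre contractile genes 20 had a higher KO mean, 7 without overlap (10.7% of all genes), and the median was 0.77. Myom3, an M-band protein of slow and intermediate fibres, rose from 4.36 ± 0.12 to 6.72 ± 0.57 (2.36, SE 0.23, adjusted p = 0.0024, kept in all 6). Tnni1 (1.65, adjusted p = 0.111), Tnnc1 (1.45, adjusted p = 0.0759) and Atp2a2 (0.91, adjusted p = 0.0672), the slow troponins I and C and the slow calcium pump, did not overlap and did not pass. The mean of the 8 slow fibre markers, all of them also in this list, was 9.21, 8.80 and 8.87 in KO against 8.26, 8.63 and 6.31 in WT. Without WT TA replicate 3 the median of the 22 genes was 0.37. A different share of slow fibres in the dissected tissue was not tested.

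Genes of fast fibres had lower KO means in 15 of 20, 7 lower and 1 higher without overlap (12.5% and 10.7% of all genes). Of these 20, 1 rose, Myh2, and 1 fell, Tmod4, an actin cap of muscle (-0.68, SE 0.11, adjusted p = 0.0123), and the median was -0.16. Actn3, the fast fibre actinin, read 15.02, 14.11 and 14.35 in KO against 15.42, 15.48 and 15.56 in WT, lower without overlap (-0.99, adjusted p = 0.62). Its standard error of 0.85 takes in the spread of the soleus arrays. With the TA arrays alone the limma adjusted p was 0.138. The mean of the 8 fast markers was 15.65, 15.44 and 15.43 in KO against 15.71, 15.75 and 15.71 in WT. Of 41 M-band and Z-disc genes 2 rose, Myom3 and Smtnl1 (2.02, SE 0.39), a regulator of contraction, and 2 fell, Tmod4 and Tcap, the titin cap (-0.43). Of 37 calcium handling genes 0 rose and 1 fell, Stim2 (-0.88, SE 0.20, adjusted p = 0.0485), a sensor of stored calcium. Their median was -0.17; with the block Sdf4, a calcium-binding protein (0.64, adjusted p = 0.0178), was higher, and Jph1 (-0.52) and Casq1 (-0.46) lower (adjusted p = 0.014 and 0.0435). Of 12 embryonic and regenerating fibre genes 0 passed, with Mybph (-1.42, adjusted p = 0.709) among the largest, and of 44 myogenic and fibre type transcription factors 0, with Ppara (-1.34, adjusted p = 0.324) and Tead4 (1.26, adjusted p = 0.123).

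Ampd1, the AMP deaminase of skeletal muscle, read 9.82, 7.44 and 9.78 in KO against 13.81, 13.94 and 13.69 in WT. The groups did not overlap, and the WT mean was 27.8-fold above the KO mean (-4.80, SE 0.54, adjusted p = 0.00536, kept in all 6). Of 36 genes of adenine nucleotide and phosphocreatine metabolism Ampd1 was the 1 that fell and Adsl (0.41) the 1 that rose, with a median of -0.01. Transcripts of phosphorylase kinase, which switches on glycogen breakdown, fell for its muscle subunits Phkg1 (-1.40, SE 0.29, adjusted p = 0.036, -1.41 on another probe set) and Phka1 (-0.79, SE 0.12, adjusted p = 0.011, -0.86 and -0.91 on others). Gbe1, the branching enzyme of glycogen synthesis, rose by 1.08 (SE 0.15, adjusted p = 0.0102, kept in all 6). These were the 3 of 27 glycogen genes that passed, and Pygm (-0.20), the phosphorylase itself, did not. Of 35 glycolysis and lactate genes 0 passed, with Pfkfb2 (1.09, adjusted p = 0.224) and Tigar (1.0, adjusted p = 0.107) the largest. The other probe sets of Tigar were lower in KO (-0.64 and -0.78), so no direction is given for it.

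Mettl21e and Mss51, both muscle proteins with methyltransferase-related domains, were lost together with Smox, which oxidises spermine. Mettl21e read 6.15, 4.36 and 5.82 in KO against 9.55, 9.45 and 8.66 in WT (-3.77, SE 0.51, adjusted p = 0.00922). Mss51 read 7.86, 6.77 and 6.98 against 10.21, 11.21 and 11.17 (-3.66, SE 0.31, adjusted p = 0.000952). Smox fell (-1.92, SE 0.27, adjusted p = 0.0102), with a difference of -2.89 on its other probe set. All of them were kept in all 6. In the same list of 23 polyamine and methyl metabolism genes Prmt1, an arginine methyltransferase, rose by 0.92 (SE 0.09, adjusted p = 0.0024, kept in all 6), and the median was -0.01.

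Prima1, the membrane anchor of acetylcholinesterase, fell at the neuromuscular junction list. It read 5.0, 4.01 and 3.80 in KO against 8.05, 7.51 and 8.53 in WT (-3.76, SE 0.31, adjusted p = 0.000952, kept in all 6). Of 18 tested junction genes it was the 1 that passed, and Ache, the enzyme it anchors, differed by 1.25 in the other direction (adjusted p = 0.086, with the block 0.0426). Lrp4, a receptor of the nerve's agrin signal, differed by 1.56 (adjusted p = 0.0853, with the block 0.00766).

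**Figure D4:**
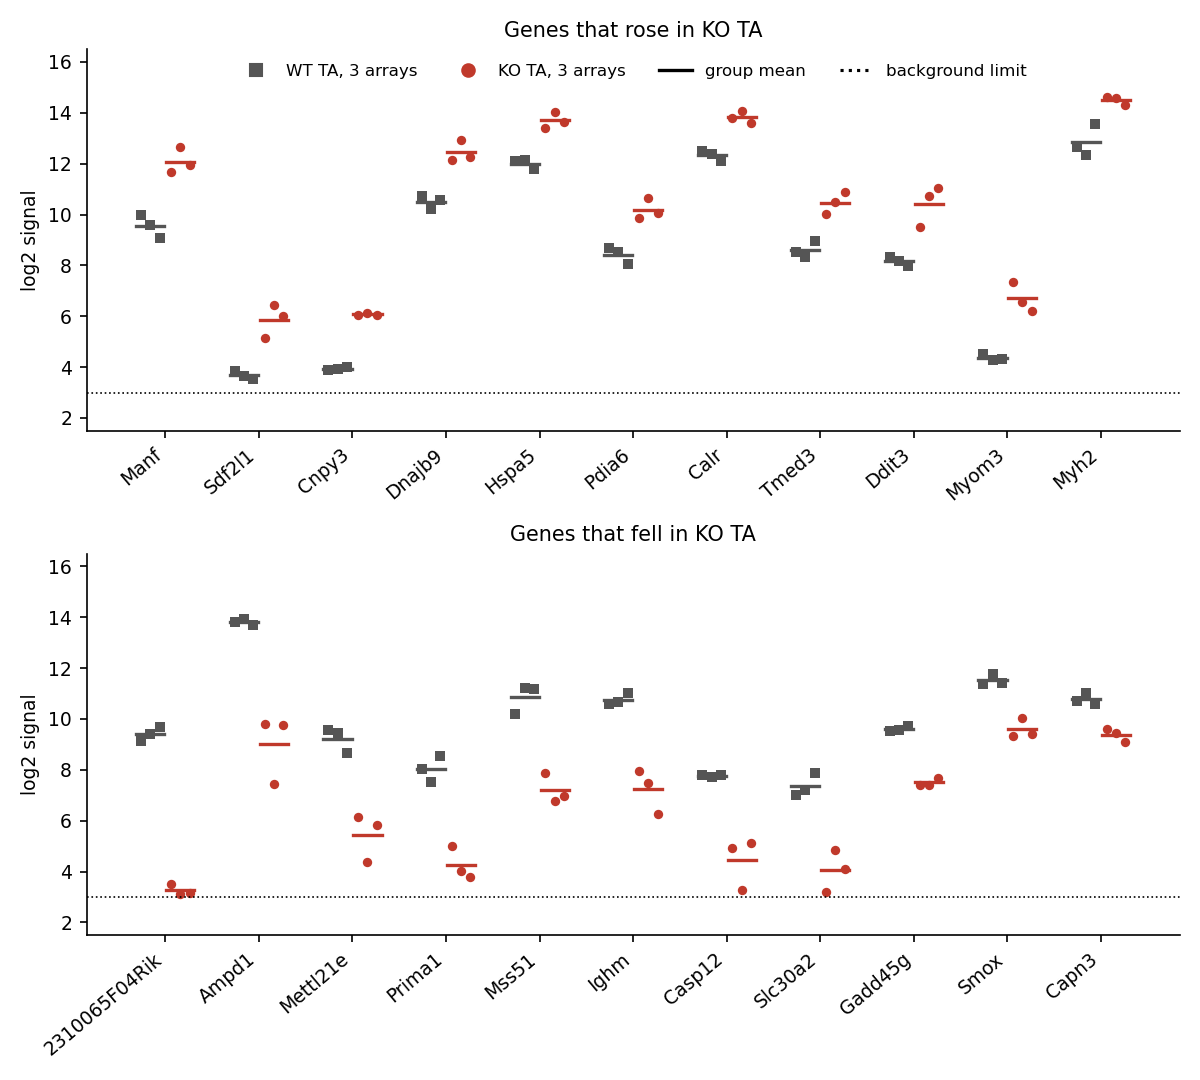
Log2 signal (y axis) of named genes (x axis) on the 3 WT and 3 KO TA arrays, replicates 1 to 3 from left to right, with group means as bars and the background limit dotted at 3.0; the upper panel holds genes that rose, the lower genes that fell. In no gene do the groups overlap, and the KO values of 2310065F04Rik sit just above the limit, from 3.10 to 3.53.

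Respiratory chain transcripts were lower by small amounts. Of 77 tested nuclear-encoded subunits 64 had a lower KO mean, and 39 were lower and 3 higher without overlap (12.5% and 10.7% of all genes). Of the 77, 5 fell (6.49%, against 1.41% of all genes) and 0 rose, with a median of -0.17. The 5 were Ndufa2 (-0.62, SE 0.13), Ndufa3 (-0.50) and Ndufa13 (-0.34) of complex I, Cox5b (-0.36) of cytochrome oxidase and Atp5j2 (-0.30, SE 0.06) of the ATP synthase, and with the block 10 fell. With the mean of a gene's probe sets Ndufa3 (-0.20, adjusted p = 0.32) and Atp5j2 (-0.18, adjusted p = 0.223) lost their calls; other probe sets differed by 0.40 and -0.49 for Ndufa3 and by -0.15 and -0.08 for Atp5j2. Of these 5 genes none was kept in all 6. The median was -0.12 to -0.26 under the other scalings. Amino acid breakdown had 3 of 31 genes that fell (9.68%, against 1.41% of all genes) and 0 that rose. The 3 were Maob, monoamine oxidase (-2.45, SE 0.53, adjusted p = 0.0414), Hsd17b10 (-0.77) of isoleucine breakdown and Pcca (-0.75) of propionate use. The list's median of -0.29 was -0.13 without WT TA replicate 3. In fatty acid uptake and oxidation (43 genes, median 0.16) Acaa2 (0.82, SE 0.15) and Hadh (0.43) rose and Acot13 (-0.53) fell, and the median was 0.01 without WT TA replicate 1 and 0.03 without KO TA replicate 3. Of 30 tricarboxylic acid cycle genes 1 rose, Got1, with a median of 0.06.

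Lipid synthesis and storage leaned higher, with 1 of 38 genes past the test (2.63%, against 1.42% of all genes that rose) and a median of 0.26. Cidea, a lipid droplet protein known from brown fat, read 4.68, 6.50 and 7.06 in KO against 3.48, 3.66 and 3.79 in WT (2.44, SE 0.51, adjusted p = 0.0356, lost in 5 of 6 leave-outs), close to the background limit in WT. With the block 6 rose; picked after their values were seen, Agpat2, which makes phosphatidic acid (2.64, adjusted p = 0.0548, with the block 0.0115), and Acaca, acetyl-CoA carboxylase (1.51, 0.0643 and 0.0166), were higher without overlap. Of 7 adipocyte markers 3 were tested, with means of 4.31, 3.92 and 3.76 in KO against 3.70, 3.92 and 2.57 in WT. Adipoq read 7.45, 6.35 and 5.80 against 6.00, 6.36 and 2.59 (1.56, adjusted p = 0.508), Cidec did not pass (0.22), and Lep and Ucp1 lay at background. The part of fat cells in these values was not tested. Of 21 cholesterol synthesis genes Tm7sf2, a sterol reductase, fell (-0.95, SE 0.13, adjusted p = 0.00876, kept in all 6) and 0 rose.

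Few genes of protein synthesis passed, but cytosolic ribosomal protein genes leaned higher. Of 45 such genes 39 had a higher KO mean, and 27 were higher and 0 lower without overlap (10.7% and 12.5% of all genes). Of the 45, 2 rose (4.44%, against 1.42% of all genes), Rps4x (0.38) and Rps7 (0.37). The median was 0.20 (0.12 to 0.26 under the other scalings). Of 60 translation factors 3 rose (5.0%), the initiation factor subunits Eif3h (0.71), Eif3d (0.62) and Eif3f (0.60), and 0 fell. Mitochondrial ribosomal proteins had a median of -0.01 and split, with Mrpl17 (0.78) and Mrps34 (0.61) higher and Mrpl23 (-1.33, SE 0.21), Mrpl20 (-0.58) and Mrps21 (-0.54) lower among 76. Of 50 mitochondrial import and chaperone genes 2 rose, Grpel2 (0.89) and Hspa9 (0.67), a pair that works together in import, and 0 fell. Among 48 cytosolic heat shock proteins Cct8 (0.49) rose and Dnajc7 (-0.54) fell.

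Few genes of protein breakdown passed. Psme4, an activator of the proteasome, fell (-1.11, SE 0.14, adjusted p = 0.00822, kept in all 6). It was the 1 of 45 proteasome genes that passed (2.22%), and the list's median was -0.16 (-0.07 to -0.21 under the other scalings). Capn3, the muscle calpain, fell (-1.40, SE 0.15, adjusted p = 0.00367), with 9.60, 9.45 and 9.08 in KO against 10.72, 11.01 and 10.60 in WT. Cast, the inhibitor of the ubiquitous calpains, fell (-0.71, SE 0.10, adjusted p = 0.0102); another of its probe sets differed by -0.76 and a further one by 0.16. Capn3 and Cast were kept in all 6. Cast was the 1 of 42 atrophy and autophagy genes that passed and Capn3 the 1 of 24 genes of the dystrophin list, shares of 2.38% and 4.17% against the 1.41% that fell among all genes, and the ligases Fbxo32 (0.51, adjusted p = 0.767) and Trim63 (-0.07, adjusted p = 0.953) did not pass.

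Few signalling genes passed. Of 34 glucocorticoid-responsive genes 25 had a lower KO mean, 2 fell (5.88%, against 1.41% of all genes) and 0 rose, with a median of -0.14. With the block 5 fell and 1 rose. Gadd45g, a growth arrest gene of this list, read 7.41, 7.42 and 7.68 in KO against 9.54, 9.57 and 9.73 in WT (-2.11, SE 0.27, adjusted p = 0.00822, kept in all 6). Sgk1, a kinase induced by glucocorticoid, fell (-1.04, SE 0.23, adjusted p = 0.0423), while Fkbp5 (-0.72, adjusted p = 0.556) and Tsc22d3 (-0.42, adjusted p = 0.638) did not pass. Among 39 growth factor genes Fst, follistatin, an inhibitor of myostatin, rose by 1.18 (SE 0.19, adjusted p = 0.014, 0.98 on another probe set). Acvr1b, a receptor of the activin and myostatin family, fell (-1.29, SE 0.24), as did Socs2, which restrains growth hormone signalling (-1.74, SE 0.31, adjusted p = 0.0198). Igf2 (1.43, adjusted p = 0.346, with the block 0.041) and Igf1 (-0.30) did not pass. Of 29 immediate early genes Klf10 (1.03) rose and Ier3 (-1.42) fell, and of 35 cell cycle genes Tk1 (-0.63) fell.

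**Figure D5:**
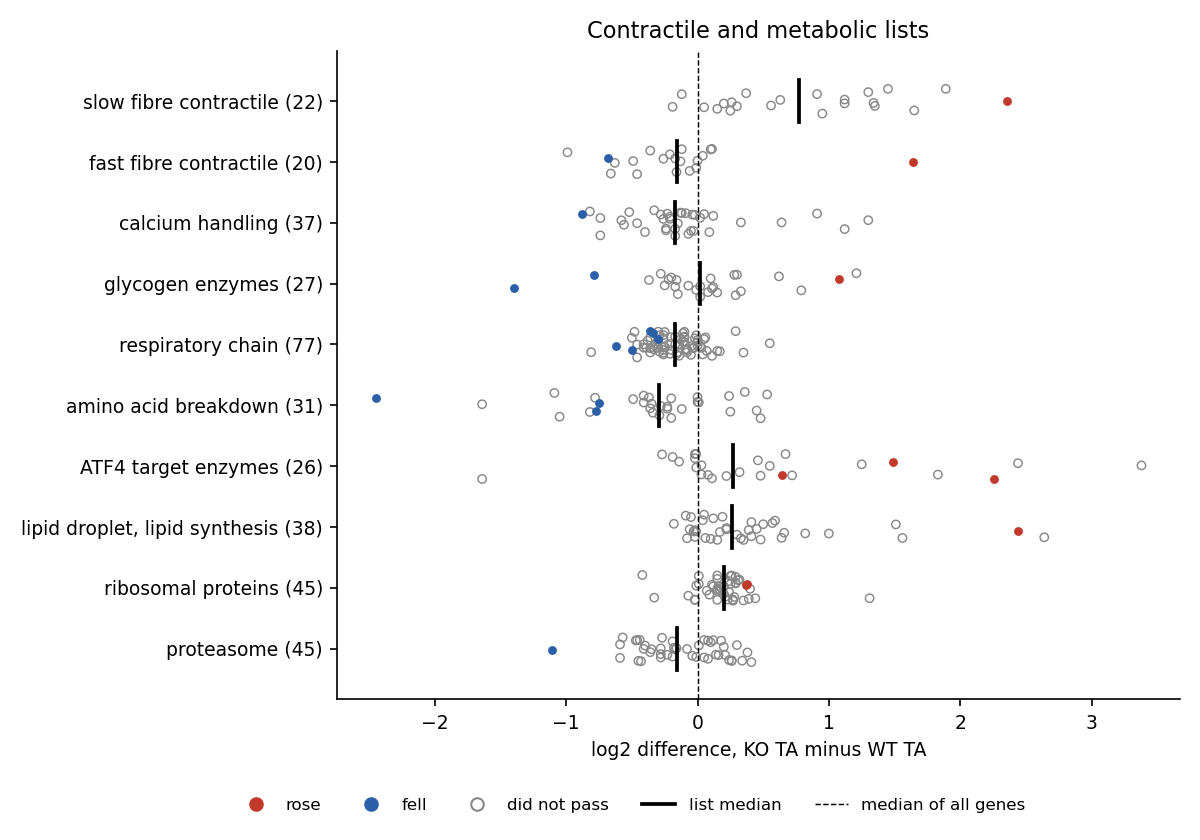
Log2 difference between KO and WT TA (x axis) for each tested gene of the contractile and metabolic lists (y axis, number tested in brackets), with filled red points for genes that rose, filled blue for those that fell, open points for those that did not pass, a bar at each list's median and a dashed line at the median of all genes. The medians run from 0.77 for slow fibre genes to -0.29 for amino acid breakdown, and most genes of each list did not pass.

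Markers of cells other than muscle fibres mostly overlapped between the groups. The exceptions by mean level were the lymphocyte markers, with 5.65 to 5.88 in KO against 6.73 to 7.12 in WT over 3 tested, and those of smooth muscle and pericytes, with 8.34 to 8.64 against 8.67 to 8.83 over 7. The first rests on Ighm, the heavy chain of immunoglobulin M, which read 7.97, 7.47 and 6.28 in KO against 10.57, 10.65 and 11.03 in WT (-3.51, SE 0.47, adjusted p = 0.00876, kept in all 6). Its other probe sets differed by -2.01 to 0.04 and did not pass, and the B and T cell markers Cd79a, Cd79b and Cd3g lay at background. Lmod1, of smooth muscle, fell to background (-0.88, SE 0.16, adjusted p = 0.0226). Thbs4, a matrix protein among the 6 tendon markers, fell (-1.58, SE 0.30, adjusted p = 0.0256). Fibroblast markers lay between 11.67 and 12.38 in KO and between 11.88 and 11.92 in WT, and of 38 collagen chains 0 passed. The part of such cells in the results was not tested.

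Several membrane and regulatory genes outside these pathways were also altered. Lmcd1, a LIM protein of muscle, rose by 1.44 (SE 0.18, adjusted p = 0.00748, kept in all 6), and Atp1b1, the beta subunit of the sodium pump, by 0.90 (SE 0.18). Kcnq5, a potassium channel, fell (-1.09, SE 0.14, adjusted p = 0.00822, kept in all 6), with no difference on a probe set near background. Slc30a2, a zinc transporter, read 3.21, 4.85 and 4.10 in KO against 7.02, 7.21 and 7.87 in WT (-3.32, SE 0.54, adjusted p = 0.014). Mgst1, a glutathione transferase (-1.27, SE 0.25), and Uros of haem synthesis (-1.07, SE 0.20) fell, and Sirt5, a mitochondrial deacylase, rose (0.93, SE 0.21). D930003E18Rik (-3.32, SE 0.30, adjusted p = 0.00142) fell from 6.41 to 3.09. Atp13a5 was at background in KO and at least 6.11-fold lower, measured against the background limit, and BE949265 likewise at least 3.67-fold lower. Of 18 clock genes and 35 interferon and antigen presentation genes 0 passed, with medians of 0.04 each.

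The soleus arrays gave 4 genes past the same test and 0 in common with the TA. Of the 368 genes 327 (88.9%) differed in the same direction in KO soleus, against 60.5% of all genes. Median differences there were 0.30 for those that rose in the TA and -0.34 for those that fell, against 0.92 and -0.88 in the TA. The genes were chosen by their TA values, which enlarges the TA medians, so the medians do not compare the size of the effect between muscles. The test of the difference between the muscles passed for 5 genes (0.0384%).

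Genes beside H6pd on chromosome 4 were examined because DNA of the donor strain can stay linked to a targeted gene. Of the 100 nearest tested genes 2 rose and 2 fell (4.0%), close to the 2.83% of all genes. The nearest was Park7, 4 genes away, which fell (-0.80, SE 0.11, adjusted p = 0.00876; -0.82 on its other probe set). Ssu72 (0.89, SE 0.13), Prkcz (1.26, SE 0.28, from background in WT) and Zfp982 (-0.44, SE 0.08) lay 31 to 49 genes away.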

How the data were processed

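Total RNA of whole muscle, extracted with Trizol and labelled as biotin cRNA per the labels' protocols, was read on 12 one-colour arrays, 3 for each genotype and muscle. The authors deposited 1 table of log2 signal for 45101 probe sets (0.89 to 16.36). The submitters' processing notes name MAS5; their summary and scaling steps are not given in the sources used here. Of the probe sets 34945 had 1 gene symbol in the platform annotation, 932 several and 9160 none, and 64 were controls.

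Values were quantile normalized. Probe sets above their array's 40th percentile on at least 3 arrays were kept (22648), and the brightest with 1 symbol stood for its gene (13009 genes). limma 3.58.1 in R 4.3.3 was fitted to the 4 group means of all 12 arrays (8 residual degrees of freedom, variance trend), 2-sided, with Benjamini-Hochberg adjustment at 0.05. The script was tested on simulated data. The median SE was 0.179; the number of arrays limits the precision, and an exact permutation test of 3 against 3 cannot go below 0.1. Summaries used Python 3.11.15 and pandas 2.3.3.

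Same-numbered KO and WT TA arrays had correlated deviations from their group means (0.345, 0.159 and 0.558). Other pairs reached 0.235 (KO 1 with WT 2) and 0.204 (KO 2 with WT 1), above the 0.159 of the arrays numbered 2. The values therefore do not settle whether equal numbers pair the arrays. The main fit did not pair them, and the block by replicate number was an alternative only. The genes and lists were chosen with earlier results of these data known. Named genes are H6pd, the 20 highest and 20 lowest differences and the 8 brightest in each direction among genes past the test without overlap, of which the text gives a selection, and, for each of 52 gene lists, members past the test or else the 2 largest differences; others were chosen after their values were seen. Alternatives changed the normalization, filter, pseudocount, choice of probe set, variance model, block and arrays.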

Additional observations from a re-analysis of the deposited data

Results flagged for a closer look

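For 5 genes the KO effect in the TA differed from that in the soleus by limma's test of the difference itself (n = 3 arrays per group, Benjamini-Hochberg over all genes). The effect in the TA minus that in the soleus was -5.55 for 2310065F04Rik (adjusted p = 1e-05), whose WT soleus level was already low (3.74, against 9.42 in WT TA). It was -3.61 for Mss51 and -3.59 for Prima1 (adjusted p = 0.0289 each), which differed by -0.05 and -0.17 in soleus. It was 1.5 for Bhlha15, a transcription factor of secretory cells, from background in WT TA (2.52) to 4.34, 4.04 and 3.69 in KO (adjusted p = 0.0223), and 0.61 for Arv1, a sterol transport gene close to background in WT (adjusted p = 0.0116).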

How the results depend on the processing

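Among 163 named genes, 124 of them past the test, 0 of these 124 changed sign in any of the 19 alternatives. Leaving out 1 array gave 85 to 398 genes past the test, 46 to 205 higher and 39 to 193 lower; leaving out both arrays numbered 3 gave 56 (27 higher, 29 lower). The TA arrays alone gave 4 (1 higher, 3 lower), with fewer arrays to estimate the spread. The replicate block gave 913 (469 higher, 444 lower). Median centring gave 293 higher and 117 lower; the cause was not tested. The 5 genes that differed between muscles became 3 with median centring or with no filter, 1 with mean log2 above 5 or with no variance trend, 10 with array weights, 8 without arrays numbered 3, and 3 to 20 without 1 array.

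Genes that did not pass changed sign as follows. With the mean of probe sets Myh1 was -0.13 and Tigar -0.14, with centring on kept probe sets Myh1 was -0.07, and with array weights Cd163 was 0.18. Over the leave-outs of 1 array the lowest and highest differences were -1.96 and 0.18 for Alas2, -0.97 and 0.34 for Cd163 (0.25 without KO TA replicate 2), -0.22 and 1.14 for Cd68, -0.01 and 0.96 for Ciart, -0.00 and 0.51 for Col1a1, -0.02 and 1.37 for Dbp, -0.19 and 0.64 for H6pd, -0.07 and 0.59 for Mbp, -0.48 and 0.01 for Myf5, and -0.11 and 0.01 for Myh4. Without arrays numbered 3 Cd68 was -0.28, Myf5 0.15 and Myh4 0.01. Signals near background or near the top of the scale understate a difference.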

Other observations

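A pair of gene families, picked after their values were seen and given without a test, leaned in opposite directions in KO TA. Of 10 tested Snhg genes, which host small nucleolar RNAs in their introns, 9 had a higher KO mean and 4 rose, Snhg10 (1.24, SE 0.21), Snhg8 (1.22, SE 0.27), Snhg5 (1.05, SE 0.17) and Snhg6 (0.73, SE 0.14). Snhg14 was lower without overlap (-1.69, adjusted p = 0.149, with the block 0.00953). The median was 0.72 in the TA and 0.65 in the soleus. Of 16 tested Asb genes, which encode substrate adaptors of ubiquitin ligases, 11 had a lower KO mean, 7 were lower without overlap and 2 fell, Asb15 (-1.82, SE 0.36) and Asb13 (-1.39, SE 0.30), with a median of -0.28. Among all genes 1.42% rose and 1.41% fell, and 12.5% were lower without overlap.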
